A study of Rattus norvegicus with 90 samples.

Results

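The 12 libraries compared here are the control livers of gestation day (GD) 18, 6 fetal and 6 maternal, out of 90 libraries in the series. They were chosen by title and dose entry, and each fetal library was paired with the maternal library of the same dam by the dam number in its title. Every gene that passed a filter on low counts was tested, which left 10151 of the 20833 genes in the file. The study exposed pregnant Sprague-Dawley rats (Crl:CD(SD), about 90 days old) by mouth to NBP2 (Nafion byproduct 2, a fluorinated sulfonic acid of the PFAS class) and took liver from dams and fetuses. The controls compared here received 0 mg/kg/d from GD14 to GD18. Comparisons drawn on below use fetal and maternal liver of 4 dams given 0.1 mg/kg/d over the same days, and of 3 control dams (0 mg/kg/d) dosed from GD17 and sampled at a later age, which titles call GD21 and the age entry gives as GD20. Dams carry no transgene or deletion as far as the labels say. The labels do not state how many fetuses, or of which sex, gave 1 fetal library, so each fetal library is counted as 1 litter. Summed over 6 Y-linked genes, 5 of the 6 fetal libraries lay above every maternal library.

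Before birth the liver is the main site of blood formation: hepatoblasts, the precursors of hepatocytes and bile duct cells, support islands of red cell precursors, megakaryocytes and myeloid cells. Hepatoblasts secrete alpha-fetoprotein and growth factors, while most enzymes of drug, amino acid and glucose metabolism are switched on around and after birth. The maternal liver late in pregnancy is an adult liver under the hormones of pregnancy, in which hepatocytes make up most of the tissue.

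TempO-Seq, the assay used, ligates pairs of detector probes on each transcript and sequences the product, and each gene is seen through its own probe pair. Levels are CPM (counts scaled to library size, with TMM factors), and they can be compared between livers for 1 gene but not between genes. Overly abundant transcripts were attenuated alike in all libraries, per the labels, which do not name them. Library totals ran from 3667351 to 6409494 counts. One study block stood apart: in the 6 libraries of block 140 (dams 2069, 2070 and 2071) 18738 to 20117 genes had a count, against 12209 to 13951 in the 6 of block 143 (dams 2114, 2115 and 2116). Summed chemosensory receptor transcripts, 1269 genes of a class not expected in liver, reached 1119.5 to 4459 CPM in block 140 and 17.7 to 62.2 CPM in block 143. The median receptor gene lay at 1.34 CPM in fetal and 2.36 CPM in maternal libraries of block 140, so a level of a few CPM there is close to that of genes not expected in liver. Counts of list members in block 143 alone are therefore given beside several lists. Where block 143 alone moved the fold change of a gene named below by over 1.5 times, its log2 value there follows the one over both blocks, or the gene's summed counts there where a liver had 3 or fewer. As a sum, 17 mature hepatocyte markers reached 6616 to 8966 CPM in fetal and 27465 to 46289 CPM in maternal liver, and each of the 17 was called higher in maternal liver. Such a sum is carried by its most abundant members, and some members, such as Tdo2 and Cps1, had few counts in fetal liver.

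Fetal and maternal liver differed at most genes measured. At an adjusted p under 0.05 (edgeR quasi-likelihood F test with dam as a block, Benjamini-Hochberg over 10151 genes) 6942 genes were called, 68.4% of those tested: 3516 (34.6%) were higher in fetal and 3426 (33.8%) higher in maternal liver. A stricter test for a difference past 2-fold called 3565 genes (35.1%), 1734 (17.1%) higher in fetal and 1831 (18%) higher in maternal liver. For 5002 genes (49.3%) the 6 fetal and 6 maternal values did not overlap. The median log2 fold change, fetal minus maternal, was 0.01 over all tested genes and the median size of a difference was 0.98. A difference of at least 10-fold was fitted for 446 genes higher in fetal and 514 higher in maternal liver, and one of at least 100-fold for 39 and 84 genes. Of the 6942 genes called, 6643 were tested in block 143 alone, where all 6643 had the same direction and 5927 were called. The libraries of block 143 are among those that made the 6942 calls, so this overlap is not an independent repeat. Among 98 tested chemosensory receptor genes, a class not expected in liver, 44 were called higher in maternal and 0 in fetal liver. Past 2-fold 5 were called. With the receptor share of each library as a covariate 1 of the 98 was called higher in maternal liver. How far background reads entered other calls at low levels was not tested. The scaling sets the balance between directions: with library totals and no factors the median moved to 0.28, and 4170 genes were called higher in fetal and 2756 higher in maternal liver (2204 and 1513 past 2-fold). Fold changes below are from the TMM scaling, and the SE follows each ±. Lists are described by their members that passed the filter; since a gene expressed in 1 liver only passes through that liver, list counts are descriptions to be read beside the 34.6% and 33.8% of all genes. Some counts are uncertain because the estimated counts are not whole, so reads may have been shared with other genes or models: among those named here this holds for A2m, Acaca, Agpat1, Aldoa, Apoc3, Asns, Ass1, Cp, Cyp2e1, Esr1, Fmo1, Gata1, Hadhb, Hbb, Hbe2, Hdc, Mat1a, Mcm5, Mt1, Mt2A, Mug1, Nfia, Postn, Ppia, Prlr, Rxrb, Scp2, Sult2a1, Tf, Thpo and Thra.

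**Figure D1:**
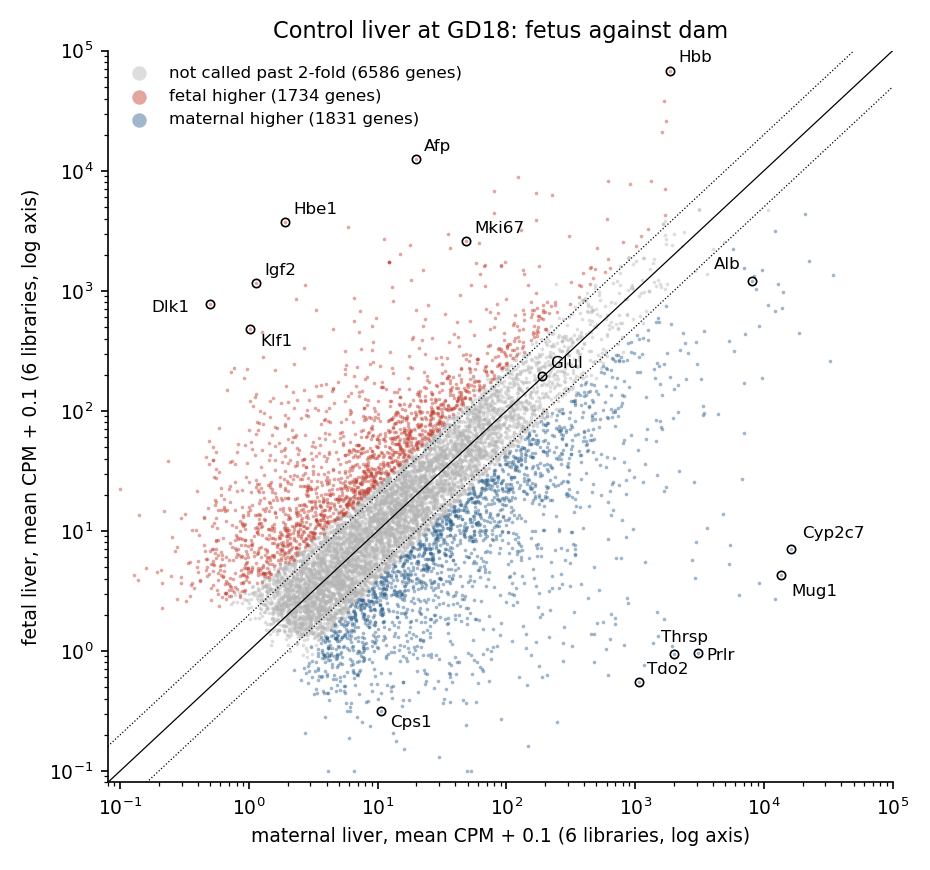
Mean level of each of the 10151 tested genes in 6 maternal (x axis) and 6 fetal (y axis) control livers at GD18, in CPM plus 0.1 on log axes; dotted lines mark 2-fold differences and colours the genes called past 2-fold. Afp, Dlk1, Igf2, Hbe1 and Klf1 lie far above the diagonal, Prlr, Cyp2c7, Mug1, Thrsp and Tdo2 far below it, and Glul on it.

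Genes of the hepatoblast and of fetal growth were mostly far higher in fetal liver. Of 18 tested oncofetal genes 14 were higher in fetal liver, 1 in maternal liver and 3 were not called, with a median log2 fold change of 3.53. Alpha-fetoprotein (Afp, chr14:19141755-19159924 in the file's build, rn6), the main plasma protein of the fetus, ran from 9848 to 14611 CPM (median 12608) in fetal and from 14.3 to 26.4 CPM (median 19.9) in maternal liver. The groups lay 643-fold apart without overlap, a log2 difference of 9.33 ± 0.21 (adjusted p = 2.42e-09, edgeR). Its RefSeq promoter (GRCr8, chr14:17875646-17875895 (reverse strand), the 250 bases before the start) is shown because Afp is a known target of the hepatocyte factor HNF1, and the capitals mark 1 match to the HNF1 motif (GTTAAT, any base, then ATT), 135 to 126 bases before the start.
Afp: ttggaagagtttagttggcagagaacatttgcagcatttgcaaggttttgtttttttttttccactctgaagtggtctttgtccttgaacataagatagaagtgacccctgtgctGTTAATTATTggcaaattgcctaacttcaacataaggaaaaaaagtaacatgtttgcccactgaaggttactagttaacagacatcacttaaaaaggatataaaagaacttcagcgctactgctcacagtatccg
That motif was sought on both strands over 250 bases before to 50 after the start. A gene counts once if any of its promoters holds it. This was so for 0.372% of all 27457 genes with a promoter and 0.341% of the tested ones. Among plasma protein genes it was so for 4 of 33 (12.1%), namely Afp, Gc, Hgfac and Serpina4. Afp was the only one of these 4 that was higher in fetal liver. A match is a description of letters and not of binding.

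Igf2 (chr1:215828102-215846912), an imprinted growth factor that drives fetal growth, measured 994 to 1449 CPM (median 1115) in fetal and 0.462 to 1.59 CPM (median 0.966) in maternal liver (log2 10.08 ± 0.27). Dlk1 (chr6:133552821-133583752), an imprinted membrane protein that marks hepatoblasts, ran from 713 to 847 CPM (median 770.1) in fetal against 0 to 0.707 CPM (median 0.470) in maternal liver (log2 10.76 ± 0.27). For both genes the lowest fetal library lay far above the highest maternal one. The fetal proteoglycan Gpc3 (5.90 ± 0.19) and the RNA-binding protein Igf2bp1 (6.94 ± 0.45, with 2116 fetal and 1 maternal counts in block 143) were higher in fetal liver too. Hmga2, a chromatin protein of embryonic cells, had 487 counts over the 6 fetal and 1 count over the 6 maternal libraries, a ratio of 399.7 (95% counting interval 71.4 to 15818). Among 13 tested imprinted genes 10 were higher in fetal liver, 1 was lower and 2 were not called. The one that was lower is Slc38a4, an amino acid transporter of hepatocytes, at 0.733 to 3.74 CPM (median 1.99) in fetal and 242 to 389.9 CPM (median 355) in maternal liver (log2 −7.40 ± 0.27). Mest (log2 1.15 ± 0.50, adjusted p = 0.0635) and the protease inhibitor A2m (0.23 ± 0.28, 0.481) were not called; Mest was called in block 143 alone (1.46, adjusted p = 0.00176). With block 143 alone 15 of 17 oncofetal genes were higher in fetal liver, with a median of 5.04.

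Red cell genes were higher in fetal liver almost throughout: 50 of 51 tested erythroid genes were higher in fetal liver and 1, the embryonic globin model Hbe2, was not called. Their median log2 fold change was 4.93, and 50 of 50 were higher in block 143 alone. Summed over the list, fetal libraries held 117333 to 141837 CPM and maternal libraries 2622 to 10293 CPM. Haemoglobin genes alone took 10.7% to 13.3% of all counts in fetal and 0.174% to 0.918% in maternal liver. In such bulk tissue, fewer cells of a type and less RNA per cell cannot be told apart.

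The adult beta globin Hbb measured 54117 to 90276 CPM (median 65076) in fetal and 823 to 3158 CPM (median 1705) in maternal liver (log2 5.35 ± 0.31). The embryonic globin Hbe1 (chr1:169003788-169005191) ran from 1454 to 9479 CPM (median 2323) in fetal and 0.666 to 2.83 CPM (median 1.85) in maternal liver (log2 10.88 ± 0.29). The spread among fetal livers was wide for Hbe1, whose highest library lay several-fold above the median. Hbz, the embryonic alpha-like globin, was found at 17.1 to 31.0 CPM (median 21.5) in fetal liver and had no count in any maternal library, which makes it at least 218-fold higher against a floor of 3 counts over the maternal group. Ahsp, the chaperone of free alpha globin, had 3388 CPM in fetal against 5.04 CPM in maternal liver at the median (log2 9.18 ± 0.28). The carbonic anhydrase Car1 (8.56 ± 0.53, 10.56 in block 143) and the transcription factors Klf1 (9.03 ± 0.25) and Gata1 (3.19 ± 0.63, with 126 fetal and 0 maternal counts in block 143) were higher as well. Alas2, the red cell form of the first enzyme of haem synthesis, measured 251 to 352 CPM (median 313) in fetal and 4.62 to 27.9 CPM (median 9.36) in maternal liver (log2 4.87 ± 0.39). Its counterpart of other tissues, Alas1, went the other way: 0.368 CPM in fetal and 3.09 CPM in maternal liver at the median (log2 −3.15 ± 0.35).

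Promoters of Klf1 and Hbe1 are shown for the GATA motif, since red cell genes are known targets of GATA1. Both come from RefSeq (GRCr8; Klf1 chr19:40158652-40158901 (reverse strand), Hbe1 chr1:167696281-167696530 (reverse strand)) and cover 250 bases before the start, printed along the gene, with TGATAA in capitals, which lies on the opposite strand and so reads TTATCA.
Klf1: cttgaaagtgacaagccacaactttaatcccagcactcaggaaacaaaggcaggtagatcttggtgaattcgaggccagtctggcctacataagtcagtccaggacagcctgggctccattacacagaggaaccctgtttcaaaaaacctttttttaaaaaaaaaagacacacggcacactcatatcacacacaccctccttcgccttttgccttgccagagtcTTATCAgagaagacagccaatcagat
Hbe1: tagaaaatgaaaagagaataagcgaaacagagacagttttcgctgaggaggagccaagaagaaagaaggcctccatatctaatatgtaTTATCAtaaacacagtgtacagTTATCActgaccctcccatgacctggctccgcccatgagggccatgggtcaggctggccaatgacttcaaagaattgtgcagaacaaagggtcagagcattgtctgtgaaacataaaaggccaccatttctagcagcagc
Klf1 holds the motif 26 to 21 bases before its start, and Hbe1 holds it 162 to 157 and 140 to 135 bases before. On both strands TGATAA is found in 9 of 35 erythroid genes (25.7%), 5.14% of tested genes and 9.67% of all genes with a promoter. For AGATAA these are 8 of 35 (22.9%), 7.08% and 12.2%. Of 24 P450 genes 6 (25%) hold AGATAA and 3 (12.5%) TGATAA.

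Genes of other blood cells were mostly higher in fetal liver too. Of 25 tested genes of progenitors, myeloid cells and megakaryocytes 20 were higher in fetal liver, 1 (Lcn2, also made by hepatocytes, −0.86 ± 0.32, −0.24 in block 143) was higher in maternal liver and 4 were not called; 19 further members did not pass the filter, among them Mpo. The platelet chemokine Pf4 measured 1077 to 2277 CPM (median 1578) in fetal and 53.7 to 87.1 CPM (median 64.2) in maternal liver (log2 4.58 ± 0.23), with no overlap. The granule genes Prg2 (5.87 ± 0.46, with 373 fetal and 0 maternal counts in block 143) of eosinophils and Camp (5.83 ± 0.32, with 691 fetal and 3 maternal counts in block 143) of neutrophils, the histamine-forming enzyme Hdc (8.58 ± 0.26) and the platelet transglutaminase subunit F13a1 (4.05 ± 0.48, 5.29 in block 143) were higher in fetal liver. Spi1, the PU.1 factor of myeloid cells, did not pass the test (log2 0.03 ± 0.20, adjusted p = 0.907). In block 143 alone 18 of 24 were higher. The call of Lcn2 was lost there (adjusted p = 0.372), without factors (0.153), without the count filter (0.0533), with the chemosensory receptor share as a covariate (0.22) and without dam 2069 (0.0835) or 2071 (0.0975).

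Macrophage and Kupffer cell markers took the other direction: 16 of 19 tested were higher in maternal liver, none in fetal liver and 3 were not called. The Kupffer cell lectin Clec4f measured 10.3 to 26.0 CPM (median 17.9) in fetal and 281 to 371 CPM (median 330.3) in maternal liver (log2 −4.14 ± 0.21). Endothelial markers were mixed, with 3 of 18 higher in fetal and 12 in maternal liver, and the sinusoidal lectin Clec4g among the latter (log2 −6.21 ± 0.37, −7.48 in block 143). With no scaling factors the endothelial counts were 4 and 8. Of 17 stellate cell and fibroblast markers 10 were higher in fetal and 3 in maternal liver, led by Postn (6.01 ± 0.56), while their summed level overlapped (882 to 1708 CPM in fetal, 945 to 1676 CPM in maternal liver). Lymphocyte genes were mostly too low to test: 8 of 31 passed the filter, 6 of them higher in maternal and 2, Igll1 and Rag2 of lymphocyte precursors, in fetal liver. In block 143 alone 5 were tested, with 4 higher in maternal and none higher in fetal liver. Bile duct markers split 3 to 6 of 11 tested. Placenta markers stayed below the filter in both livers.

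**Figure D2:**
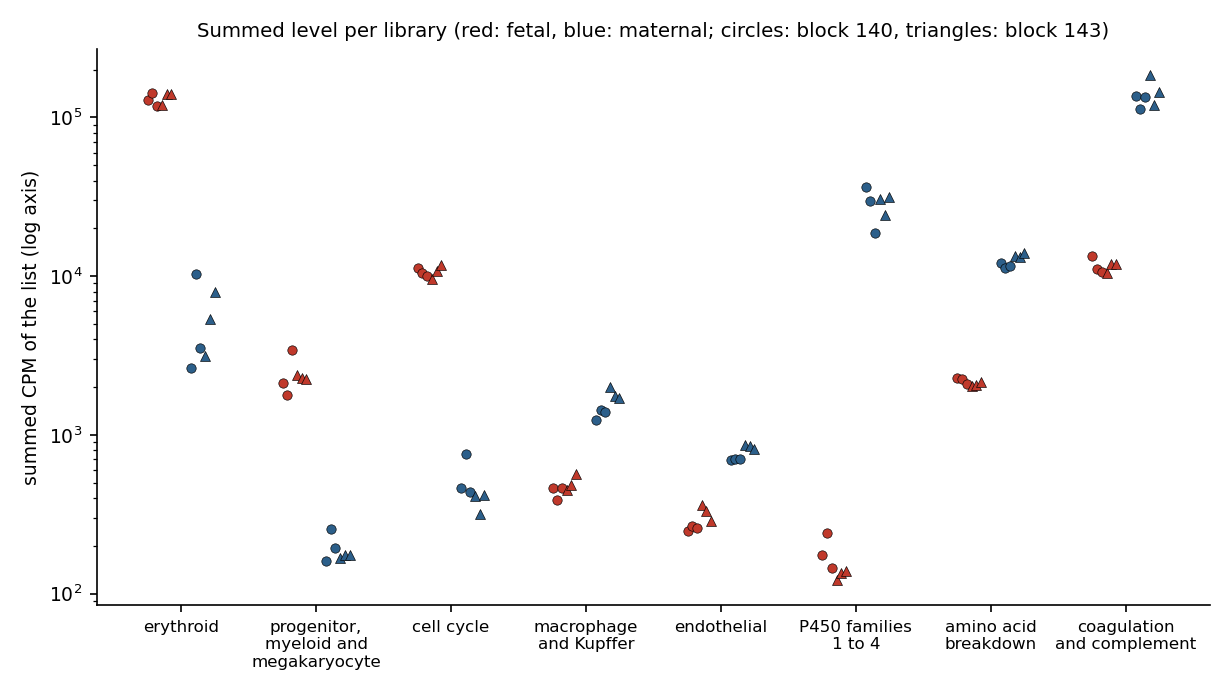
Summed CPM (log axis) of 8 gene lists in each of the 12 libraries, red for fetal and blue for maternal liver, circles for block 140 and triangles for block 143. For every list drawn the 2 livers are separate: erythroid, progenitor and cell cycle genes are higher in all fetal libraries and the other 5 lists in all maternal libraries.

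Iron handling genes were mostly higher in maternal liver. Of 18 tested genes 3 were higher in fetal liver: the transferrin receptor Tfrc, the ferrireductase Steap3 (2.56 ± 0.24) and the iron transporter Slc11a2 (3.11 ± 0.36). Tfrc measured 1196 to 1538 CPM (median 1358) in fetal and 38.0 to 92.1 CPM (median 55.0) in maternal liver (log2 4.52 ± 0.23). Higher in the dam were 14, among them the ferroxidase Cp (−8.56 ± 0.39), the haemoglobin scavenger Hp (−5.84 ± 0.48, −7.08 in block 143) and transferrin, Tf (−3.69 ± 0.21). The iron hormone hepcidin, Hamp, ran from 0.844 to 6.51 CPM (median 3.64) in fetal and 8.09 to 70.0 CPM (median 23.5) in maternal liver (log2 −3.05 ± 0.39), its maternal values covering a wide range. Of 10 tested growth factors by which liver acts on blood cells, 6 were higher in maternal liver, among them Thpo, the platelet growth factor (−1.68 ± 0.32, −2.55 in block 143), and Cxcl12, which holds stem cells in their niche (−2.33 ± 0.11). Igf2 and Dlk1 made up the 2 higher in fetal liver, and Epo did not pass the filter.

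Genes of cell division were higher in fetal liver almost without exception. Of 57 tested cell cycle genes 53 were higher in fetal liver, 1 in maternal liver and 3 were not called, with a median log2 fold change of 3.99 and sums of 9599.7 to 11686 CPM against 319 to 753 CPM. The proliferation marker Mki67 measured 2327 to 3186 CPM (median 2349.8) in fetal and 33.8 to 89.3 CPM (median 36.5) in maternal liver (log2 5.84 ± 0.26). The mitotic kinase Cdk1 had 12.1 CPM in fetal and 0.518 CPM in maternal liver at the median (log2 4.02 ± 0.33). Uhrf1 (6.16 ± 0.25), which keeps DNA methylation through replication, Cdt1 (5.92 ± 0.30), which licenses replication origins, and the helicase subunit Mcm5 (5.77 ± 0.26) showed the same. Cyclin D1, Ccnd1, did not pass the test (log2 0.65 ± 0.29, adjusted p = 0.0650). It was called higher in fetal liver without factors (adjusted p = 0.0159, edgeR), without the filter (0.0210), without the replicate block (0.0381) and without dam 2069 (0.0449). In block 143 alone it was not called (0.359). Which cells divide cannot be read from these bulk libraries. In block 143 alone 55 of 57 were higher in fetal liver, with a median of 4.71.

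Promoters of Mcm5 and Cdk1 are shown for the motifs known from replication and mitotic genes (RefSeq, GRCr8; Mcm5 chr19:13488563-13488812 (forward strand), Cdk1 chr20:19265043-19265292 (forward strand)). Capitals mark matches to the E2F motif TTTGGCGC in Mcm5, 209 to 202 bases before the start, and to CCAAT in Cdk1, 210 to 206, 81 to 77 and 49 to 45 bases before. All lie on the strand opposite to the one printed, so that the capitals read as the reverse complement.
Mcm5: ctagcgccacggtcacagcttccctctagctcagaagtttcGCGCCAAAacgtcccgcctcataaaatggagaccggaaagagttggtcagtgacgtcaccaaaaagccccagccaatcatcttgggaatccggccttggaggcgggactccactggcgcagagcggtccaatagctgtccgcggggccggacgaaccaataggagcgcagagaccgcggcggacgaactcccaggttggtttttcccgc
Cdk1: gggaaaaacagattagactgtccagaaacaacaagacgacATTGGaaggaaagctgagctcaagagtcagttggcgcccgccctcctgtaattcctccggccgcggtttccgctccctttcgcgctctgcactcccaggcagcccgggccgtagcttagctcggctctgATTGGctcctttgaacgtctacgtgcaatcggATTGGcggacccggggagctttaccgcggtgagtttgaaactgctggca
With both strands counted, TTTGGCGC is held by 8 of 44 cell cycle genes (18.2%), 1.05% of tested genes and 0.554% of all genes with a promoter. For CCAAT these are 34 of 44 (77.3%), 39.9% and 39.6%.

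Nearly all transcription factors of the hepatocyte were present in fetal liver at lower levels than in the dam. Of 23 tested 22 were higher in maternal liver and none in fetal liver, with a median log2 fold change of −2.02. Hnf4a, a central factor of hepatocyte identity, measured 12.5 to 46.9 CPM (median 34.0) in fetal and 114 to 165 CPM (median 146) in maternal liver (log2 −2.14 ± 0.19). The groups did not overlap, yet every fetal library held Hnf4a transcripts. Cebpa (−2.44 ± 0.19), Onecut1 (−3.46 ± 0.17), Nfia (−3.44 ± 0.15) and Zbtb20 (−3.43 ± 0.23), a repressor of Afp, also were higher in maternal liver, and Gata4 was not called (0.01 ± 0.36, not tested in block 143, adjusted p = 0.976). The list summed to 298 to 379 CPM in fetal and 1351 to 1809 CPM in maternal liver. In block 143 alone 22 of 22 were higher in maternal liver.

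Among 24 tested nuclear receptors 20 were higher in maternal liver, 1 in fetal liver and 3 were not called. The exception was the thyroid hormone receptor Thra, at 20.7 to 62.2 CPM (median 32.3) in fetal and 5.30 to 9.77 CPM (median 7.54) in maternal liver (log2 2.20 ± 0.24, 1.57 in block 143); Thrb was higher in the dam (−1.11 ± 0.19). The estrogen receptor Esr1 (−6.65 ± 0.54, with 3 fetal and 1579 maternal counts in block 143), the bile acid receptor Nr1h4 (−2.93 ± 0.31, −3.61 in block 143) and the xenobiotic receptor Nr1i2 (−2.21 ± 0.12) were higher in maternal liver. Ppara, the fatty acid sensor, ran from 4.54 to 12.5 CPM (median 9.02) in fetal and 10.1 to 22.4 CPM (median 15.3) in maternal liver, groups that overlapped (log2 −0.82 ± 0.27, −1.48 in block 143, adjusted p = 0.0219); it lost the call in block 140 alone (−0.10, adjusted p = 0.767), without dam 2114, 2115 or 2116 (adjusted p = 0.0699, 0.0771 and 0.0568), without the count filter and without scaling factors. Rxrb was not called (−0.25 ± 0.25, adjusted p = 0.387), but was in block 143 alone (−0.84, adjusted p = 0.00522).

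Cytochrome P450 enzymes, which oxidise drugs, steroids and fatty acids, were far lower in the fetus. All 30 tested P450 genes of families 1 to 4 were higher in maternal liver, with a median log2 fold change of −4.57, while 22 others did not pass the filter. Their sum was 121 to 242 CPM in fetal and 18642 to 36232 CPM in maternal liver. Cyp2c7 (chr1:148053687-148119858), a retinoid and steroid hydroxylase that is higher in female rats, measured 3.37 to 15.9 CPM (median 5.17) in fetal and 7946 to 23846 CPM (median 17834) in maternal liver (log2 −11.29 ± 0.48, −12.13 in block 143). The caffeine oxidase Cyp1a2 ran from 0.198 to 2.7 CPM (median 0.788) in fetal and 1152 to 2148 CPM (median 1239) in maternal liver (log2 −10.31 ± 0.42, −11.45 in block 143). The ethanol oxidase Cyp2e1 (−8.63 ± 0.28, −9.47 in block 143) and the female-specific Cyp2c12 (−8.69 ± 0.66, with 3 fetal and 6459 maternal counts in block 143) were near the background level of block 140 in fetal liver, at medians of 1.75 and 0.473 CPM. In block 143 alone 29 of 30 tested were higher in maternal liver, with a median of −5.00.

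Conjugating and other drug enzymes were higher in maternal liver for 40 of 44 tested genes. The 2 exceptions were Fmo1, a flavin monooxygenase of fetal liver, and Gstp1, a glutathione transferase that reappears in liver tumours. Fmo1 measured 227 to 483 CPM (median 415) in fetal and 10.4 to 27.8 CPM (median 17.9) in maternal liver (log2 4.45 ± 0.27). The 2 groups did not overlap. Gstp1 differed by 1.88 ± 0.22 and the steroid sulfotransferase Sult2a1 by −9.24 ± 0.79, −11.68 in block 143. Of 21 tested transporters 18 were higher in maternal liver, such as the organic anion carrier Slco1a1 (−9.38 ± 0.46, with 2 fetal and 5671 maternal counts in block 143), the bile acid uptake carrier Slc10a1 (−5.83 ± 0.31, −6.50 in block 143) and the bile salt pump Abcb11 (−6.62 ± 0.35, −7.61 in block 143), and 3 (Abcc5, Slc16a1 and Slc22a8) in fetal liver. All 6 tested genes of bile acid synthesis were higher in maternal liver, with Akr1d1 (−4.06 ± 0.20) and Scp2 (−2.79 ± 0.18) widest apart, while Cyp7a1, the rate-limiting enzyme, did not pass the filter.

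**Figure D3:**
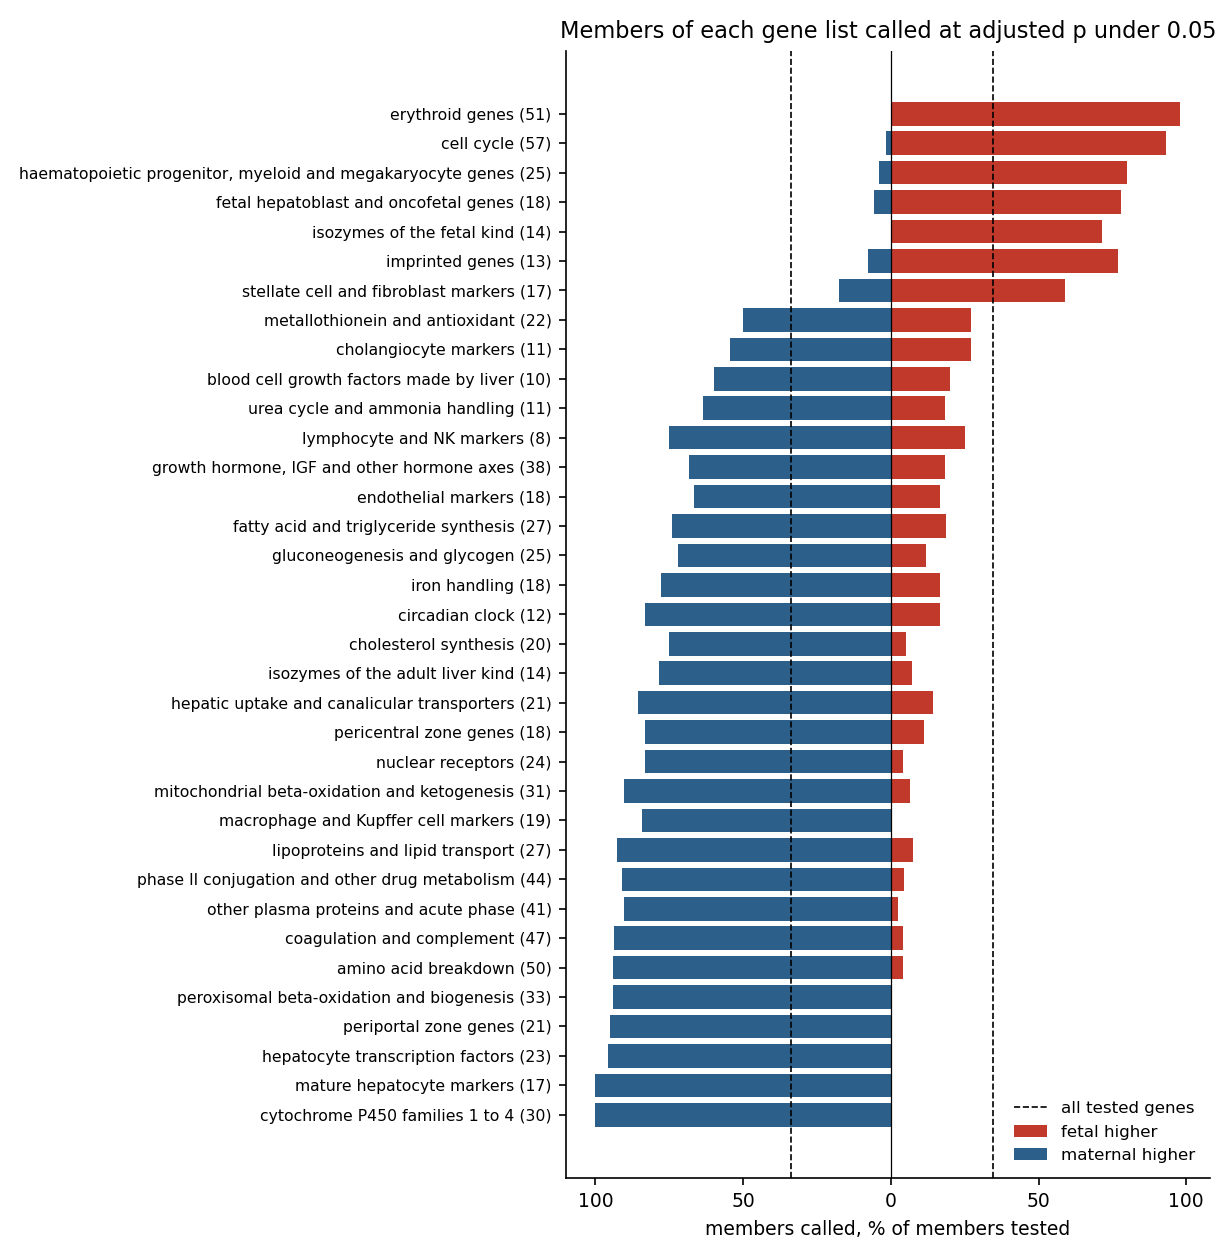
Share of tested members called at an adjusted p under 0.05, in percent, for most of the gene lists. Red to the right marks higher in fetal and blue to the left higher in maternal liver. The number tested follows each name, and dashed lines mark the 34.6% and 33.8% of all tested genes. 7 of the lists drawn lie mainly to the right, led by erythroid and cell cycle genes, and the others drawn mainly to the left. Lists with few tested members, such as bile acid synthesis, are not drawn. Also left out are the gut, fat and muscle and sex chromosome lists. The same holds for housekeeping (5 higher in fetal, 2 in maternal liver), immediate early and heat shock (8 and 4) and chemosensory receptor genes (0 and 44).

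Members in the file that did not pass the filter, and are in no count, were 2 of 20 oncofetal, 7 of 20 imprinted, 3 of 26 hepatocyte factor, 7 of 31 nuclear receptor, 2 of 16 fetal isozyme, 2 of 53 erythroid, 19 of 44 progenitor and myeloid, 6 of 16 growth factor and 2 of 20 iron genes. Likewise below it were 9 of 66 cell cycle, 22 of 52 P450, 12 of 56 conjugation, 10 of 31 transporter, 5 of 11 bile acid, 1 of 12 urea cycle, 7 of 57 amino acid, 2 of 27 gluconeogenesis and 2 of 33 mitochondrial oxidation genes. The filter also left out 9 of 42 peroxisomal, 4 of 31 fatty acid, 3 of 23 cholesterol, 4 of 31 lipoprotein, 2 of 49 coagulation and complement, 4 of 45 plasma protein, 10 of 48 hormone axis, 6 of 24 pericentral and 3 of 24 periportal genes. Also below it were 7 of 29 antioxidant, 5 of 17 clock, 3 of 15 housekeeping, 9 of 26 stellate, 7 of 25 endothelial, 6 of 25 macrophage, 23 of 31 lymphocyte and 8 of 19 bile duct genes. All members in the file of the adult isozyme and hepatocyte marker lists passed. The median log2 fold change of every list named here had the same sign in block 143 alone as over both blocks.

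Enzymes that dispose of amino acids were low in the fetus. Of 50 tested genes of amino acid breakdown 47 were higher in maternal liver and 2 in fetal liver, with a median log2 fold change of −2.80 and sums of 2032 to 2277 CPM against 11199 to 14011 CPM. Tdo2 (chr2:180897011-180914941), which opens the tryptophan ring, ran from 0 to 0.953 CPM (median 0.409) in fetal and 949 to 1195 CPM (median 1060.4) in maternal liver (log2 −11.17 ± 0.36, −12.10 in block 143). Tyrosine aminotransferase, Tat (−6.82 ± 0.58, with 0 fetal and 902 maternal counts in block 143), known as an enzyme induced at birth, was higher in maternal liver too. The asparagine-forming enzyme Asns, in contrast, was higher in fetal liver, at 371 against 9.05 CPM at the median (log2 5.41 ± 0.21). In block 143 alone 48 of 50 were higher in maternal liver.

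In the urea cycle and ammonia list 7 of 11 tested genes were higher in maternal liver, 2 (Rhbg and Aqp9) in fetal liver and 2 were not called. Cps1, the entry enzyme of the cycle, measured 0 to 0.422 CPM (median 0.193) in fetal and 8.89 to 14.3 CPM (median 9.83) in maternal liver (log2 −5.45 ± 0.37, with 2 fetal and 123 maternal counts in block 143), and whether its transcript was among those attenuated is not stated. Ass1 (−5.39 ± 0.16) and Otc (−2.16 ± 0.14) were higher in maternal liver. Glutamine synthetase, Glul, did not pass the test: 154 to 251 CPM (median 195) in fetal and 149 to 244 CPM (median 188) in maternal liver (log2 0.04 ± 0.16, adjusted p = 0.845). Glul is confined to hepatocytes around the central vein in adult liver. Of the other tested genes known from that zone, 15 were higher in maternal and 2, Lgr5 and Rhbg, in fetal liver, while 20 of 21 periportal genes were higher in maternal liver and none in fetal liver.

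Isozymes of the fetal and of the adult liver kind mostly differed in opposite directions. Of 14 tested isozymes of the fetal kind 10 were higher in fetal liver and 4 were not called (median log2 fold change 2.04), and of 14 of the adult liver kind 11 were higher in maternal and 1, Pfkl, in fetal liver (median −2.35). The hexokinase Hk1 measured 22.7 to 56.4 CPM (median 43.8) in fetal and 1.44 to 2.23 CPM (median 1.77) in maternal liver (log2 4.47 ± 0.19), and the aldolase Aldoa (2.33 ± 0.14) was higher in fetal liver too. The glucose carriers Slc2a1 (3.18 ± 0.34, 3.79 in block 143) and Slc2a2 (−2.26 ± 0.19) differed in opposite directions. Mat1a, which forms S-adenosylmethionine in adult liver, differed by −5.67 ± 0.17. Pyruvate kinase of liver, Pklr, did not pass the test (0.48 ± 0.22, adjusted p = 0.0762), and neither did the carboxylase Acaca (0.17 ± 0.12, 0.238). Among 25 tested genes of gluconeogenesis and glycogen 18 were higher in maternal and 3 in fetal liver. Pck1, which commits to glucose formation, ran from 0.181 to 2.78 CPM (median 0.864) in fetal and 109 to 578 CPM (median 238) in maternal liver (log2 −7.92 ± 0.42). G6pc (−5.31 ± 0.72, with 0 fetal and 343 maternal counts in block 143) and the glycogen-targeting subunit Ppp1r3c (−6.28 ± 0.22) were also higher in maternal liver, and the glycolytic regulator Pfkfb3 (2.19 ± 0.21) in fetal liver.

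Genes of fat oxidation were mostly higher in the dam. Of 31 tested mitochondrial genes 28 were higher in maternal liver (median −2.15), and of 33 peroxisomal genes 31 (median −2.42), with none of the latter higher in fetal liver. The carnitine transferase Cpt1a (−4.23 ± 0.36, −4.87 in block 143), the fatty acid binding protein Fabp1 (−6.74 ± 0.16) and the peroxisomal enzymes Ehhadh (−4.51 ± 0.25) and Hao1 (−5.79 ± 0.44, −7.00 in block 143) were higher in maternal liver. Oxct1, which lets tissues use ketones and is low in adult hepatocytes, was higher in fetal liver (3.30 ± 0.40, 4.45 in block 143). Hadhb was not called (0.04 ± 0.18, adjusted p = 0.844), but was called higher in maternal liver in block 143 alone (−0.37, adjusted p = 0.0219).

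Lipid synthesis was less uniform. In fatty acid and triglyceride synthesis 20 of 27 tested genes were higher in maternal and 5 in fetal liver. Thrsp, a thyroid-responsive protein of lipogenesis, measured 0.147 to 3.02 CPM (median 0.484) in fetal and 1805 to 2459 CPM (median 1918) in maternal liver (log2 −11.34 ± 0.45, −12.60 in block 143). The desaturase Scd2 of fetal tissues (2.71 ± 0.41) and Agpat1 (3.26 ± 0.19) were higher in fetal liver, and the mitochondrial carboxylase Acacb (−5.04 ± 0.42, −6.22 in block 143) in maternal liver. Cholesterol synthesis differed less (median −0.92): 15 of 20 were higher in maternal liver, 1 in fetal liver and 4 were not called, and with no scaling factors 11 were higher in maternal liver. The sterol sensor Insig1 (−3.91 ± 0.24) and the reductase Tm7sf2 (−4.19 ± 0.16) were the widest apart. Of 27 tested lipoprotein and lipid transport genes 25 were higher in maternal liver, such as Apoc3 (−8.53 ± 0.41, −9.66 in block 143) and the esterase Pon1 (−8.42 ± 0.19), while lipoprotein lipase, Lpl (3.16 ± 0.16), and the exporter Abcg1 (1.31 ± 0.18) were higher in fetal liver.

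Secreted plasma proteins were mostly higher in maternal liver. Of 47 tested coagulation and complement genes 44 were higher in maternal liver (median −3.42), with sums of 10509.9 to 13304 CPM in fetal and 112918 to 186499 CPM in maternal liver. Of 41 other plasma proteins 37 were higher in maternal and 1, Afp, in fetal liver (median −4.45). Albumin, Alb, measured 952 to 1302 CPM (median 1250.3) in fetal and 3796 to 13529 CPM (median 8368) in maternal liver (log2 −2.62 ± 0.29, −3.32 in block 143). Whether its transcript was among those attenuated is not stated. The maternal Alb values were spread widely, and the lowest lay above every fetal value. Others were near 0 in the fetus: the proteinase inhibitor Mug1 at 4.23 against 13172 CPM (log2 −11.65 ± 0.39, −12.39 in block 143), Serpina3c (−11.08 ± 0.74, −12.22 in block 143), the acute phase protein Orm1 (−10.85 ± 0.43, −12.10 in block 143), the urinary protein Rup2 (−11.20 ± 0.47, −11.96 in block 143) and the lipid-mobilising glycoprotein Azgp1 (−10.01 ± 0.42, −10.88 in block 143). Apcs, serum amyloid P, had 4140 counts over the maternal and 2 counts over the fetal libraries, a ratio of 2522 (95% counting interval 698 to 20835). Corticosteroid-binding globulin, Serpina6, did not pass the test: 1302 to 1849.6 CPM (median 1447) in fetal and 1121 to 1589 CPM (median 1292) in maternal liver (log2 0.22 ± 0.12, adjusted p = 0.129). Complement C9 (−6.93 ± 0.23) and coagulation factor F9 (−6.24 ± 0.20) were higher in maternal liver.

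**Figure D4:**
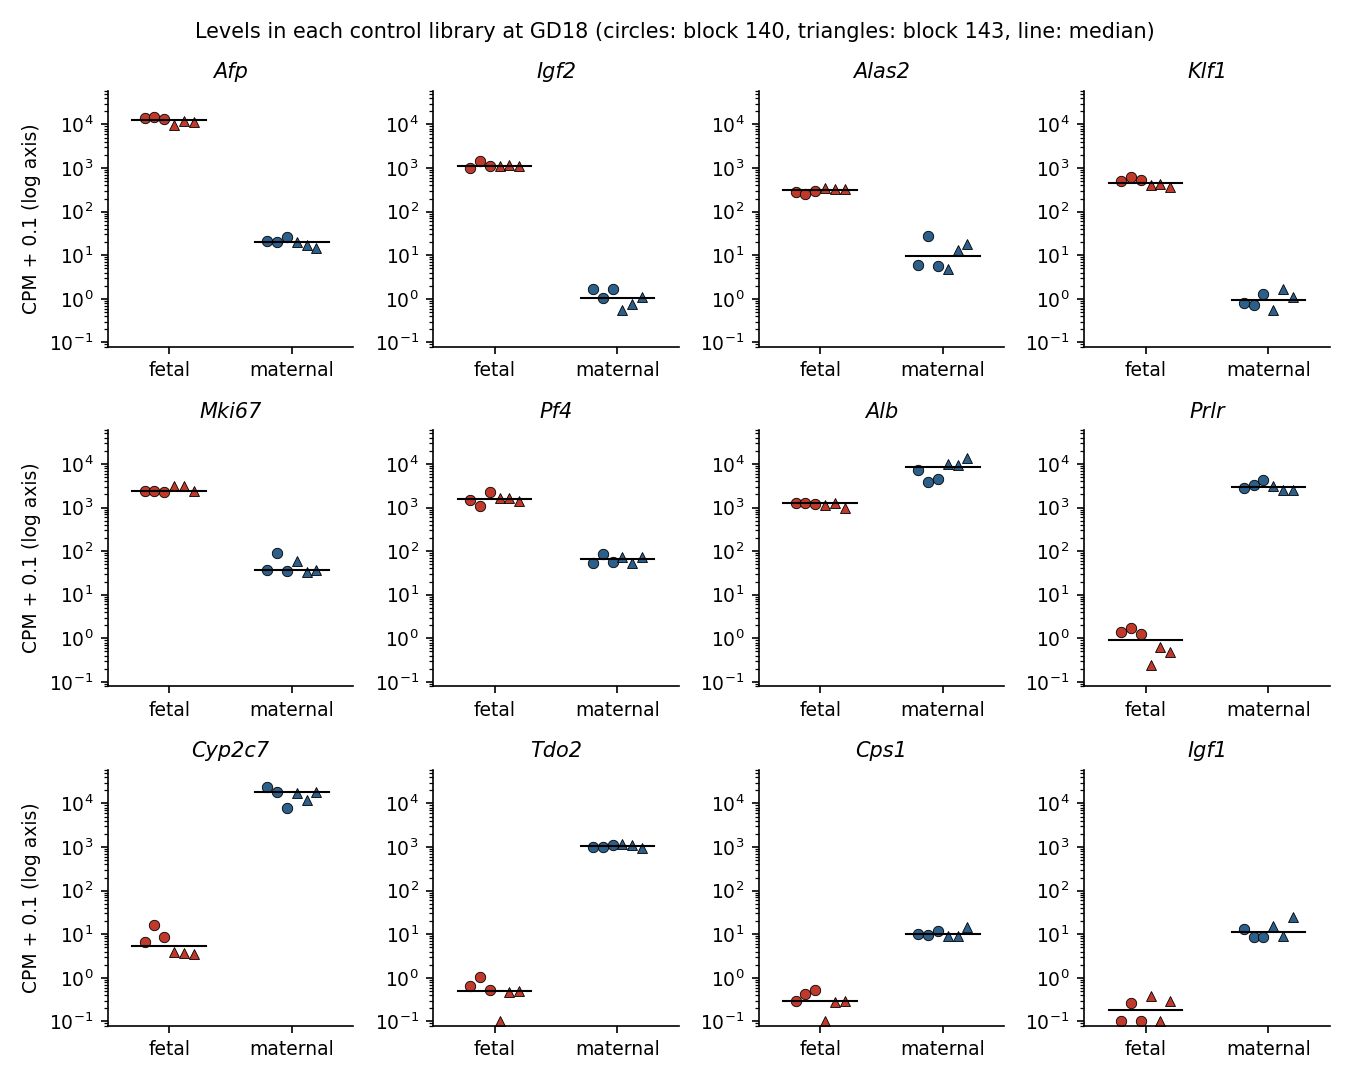
Level of 12 genes in each of the 6 fetal (red) and 6 maternal (blue) control livers, in CPM plus 0.1 on a log axis, with circles for block 140, triangles for block 143 and a line at the median. In none of the 12 panels do the groups overlap: Afp, Igf2, Alas2, Klf1, Mki67 and Pf4 are higher in every fetal library, and Alb, Prlr, Cyp2c7, Tdo2, Cps1 and Igf1 in every maternal library.

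Receptors and mediators of hormones were mostly higher in maternal liver. Of 38 tested genes 26 were higher in maternal and 7 in fetal liver. The prolactin receptor Prlr (chr2:60131776-60325693), which also binds placental lactogens, ran from 0.147 to 1.59 CPM (median 0.834) in fetal and 2556 to 4186 CPM (median 2966) in maternal liver. The log2 difference was −11.84 ± 0.35, −12.91 in block 143 (adjusted p = 4.80e-09, edgeR). Igf1, the growth factor under growth hormone, measured 0 to 0.293 CPM (median 0.0794) in fetal and 8.57 to 24.4 CPM (median 11) in maternal liver (log2 −6.60 ± 0.42) and so differed in the direction opposite to Igf2. The growth hormone receptor Ghr (−5.24 ± 0.27) was higher in maternal liver as well, while its signal transducer Stat5a did not pass the test (−0.06 ± 0.21, adjusted p = 0.804). The binding proteins Igfbp1 (1.58 ± 0.30, groups overlapping) and Igfbp2 (1.61 ± 0.30) were higher in fetal liver. The deiodinase Dio1 (−7.24 ± 0.58, with 0 fetal and 1019 maternal counts in block 143), which activates thyroid hormone, was higher in maternal liver. Of 12 tested clock genes 10 were higher in maternal liver, with Npas2 (−3.90 ± 0.33) among them, and 2, Per2 (0.78 ± 0.31) and Per3 (1.31 ± 0.33), in fetal liver; all animals were killed in the morning. The call of Per2 was lost in block 143 alone (adjusted p = 0.123), with RLE factors or without the replicate block (both 0.053), with the receptor covariate (0.38) and without dam 2070, 2071, 2114 or 2116 (0.0696 to 0.136).

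Antioxidant genes went in both directions. Of 22 tested 6 were higher in fetal and 11 in maternal liver. Metallothionein Mt1 was at 2213 CPM in fetal and 568 CPM in maternal liver (log2 2.38 ± 0.37), and Mt2A (3.36 ± 0.36) and the red cell peroxiredoxin Prdx2 (4.14 ± 0.18) were higher in fetal liver. The quinone reductase Nqo1 (−3.30 ± 0.26) and the superoxide dismutase Sod1 (−1.42 ± 0.21) were higher in maternal liver, while Hmox1, the haem-degrading enzyme, did not pass the test (0.21 ± 0.14, adjusted p = 0.189). Of 12 tested genes often used as loading controls 5 were higher in fetal and 2 in maternal liver, with 5 not called, Tfrc of the erythroid list among the first. Actb, Ppia and Rplp0 stood below the filter in both livers.

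The contrast was repeated in 4 fetal and 4 maternal livers of dams given 0.1 mg/kg/d, which share no library or dam with the controls. There 6338 of 9950 genes were called (63.7%) and 3446 past 2-fold (34.6%). Of the 6942 genes called in controls, 6760 were tested; 6719 had the same direction, 5830 were also called, and none was called in the opposite direction. Of the 3565 genes past 2-fold, 3511 were tested, all 3511 kept their direction and 3472 were called at an adjusted p under 0.05. Afp differed by 8.76 ± 0.22 there, Igf2 by 9.09 ± 0.26, Prlr by −12.27 ± 0.26, Cyp2c7 by −11.66 ± 0.63 and Glul by 0.04 ± 0.17. These libraries come from the same blocks, 140 and 143, so they repeat the contrast in other animals but not in another batch.

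At the later age the gap had narrowed for many genes that were higher in the dam. The difference of the contrast between ages, tested as the interaction of liver and age in 18 libraries, was called for 1196 of 9579 genes (12.5%): 861 (8.99%) moved towards fetal liver and 335 (3.5%) towards maternal liver. Of 735 called genes that were higher in maternal liver at GD18, 702 moved towards fetal liver. Of 338 that were higher in fetal liver, 258 moved towards maternal liver. The GD18 libraries set both the sorting and part of the difference, so some movement back towards equal levels is built into these counts. The later libraries all belong to study block 144, so age and block cannot be told apart. The count fell to 514 without the GD21 dam 2130 and to 794 without dam 2129.

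Enzymes and plasma proteins of the hepatocyte were among the genes that moved. Against the 8.99% of all genes, the contrast moved towards fetal liver for 33 of 50 amino acid genes, 28 of 47 coagulation and complement genes, 25 of 41 other plasma proteins and 16 of 25 genes of gluconeogenesis and glycogen, and for 11 of 23 hepatocyte transcription factors. Of 29 P450 genes 11 moved that way. Most tested members of these lists were higher in maternal liver at GD18. Among all 3426 genes called higher in maternal liver, 702 moved towards fetal liver, so 8.99% of all genes is a low mark for these lists. Of 49 erythroid genes 3 moved towards maternal liver, as did 3.5% of all genes, and of 55 cell cycle genes 4 moved towards fetal liver, against 8.99% of all genes. The contrast of Cps1 went from −5.46 to −0.42, that of Azgp1 from −10.04 to −2.46 and that of Orm1 from −10.87 to −5.46. Hamp had opposite signs at the 2 ages, going from −3.06 to 4.40, and so did Ppara, from −0.83 to 1.41, a difference that lost its call without dam 2129 (adjusted p = 0.0653) or 2130 (0.101). The contrast of the embryonic globin Hbe1 went from 10.86 to 8.03, and lost its call without dam 2130 (adjusted p = 0.135). Serpina6, without a called difference at GD18 (0.21), stood at −3.22 at GD21, and Pck1 went from −7.93 to −10.51. The call of Pck1 was lost without any 1 of the 3 GD21 dams (adjusted p = 0.0904 to 0.148), without factors (0.058) and without the replicate block (0.0888). The contrast of Afp did not pass this test (9.31 and 9.39, adjusted p = 0.920).

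**Figure D5:**
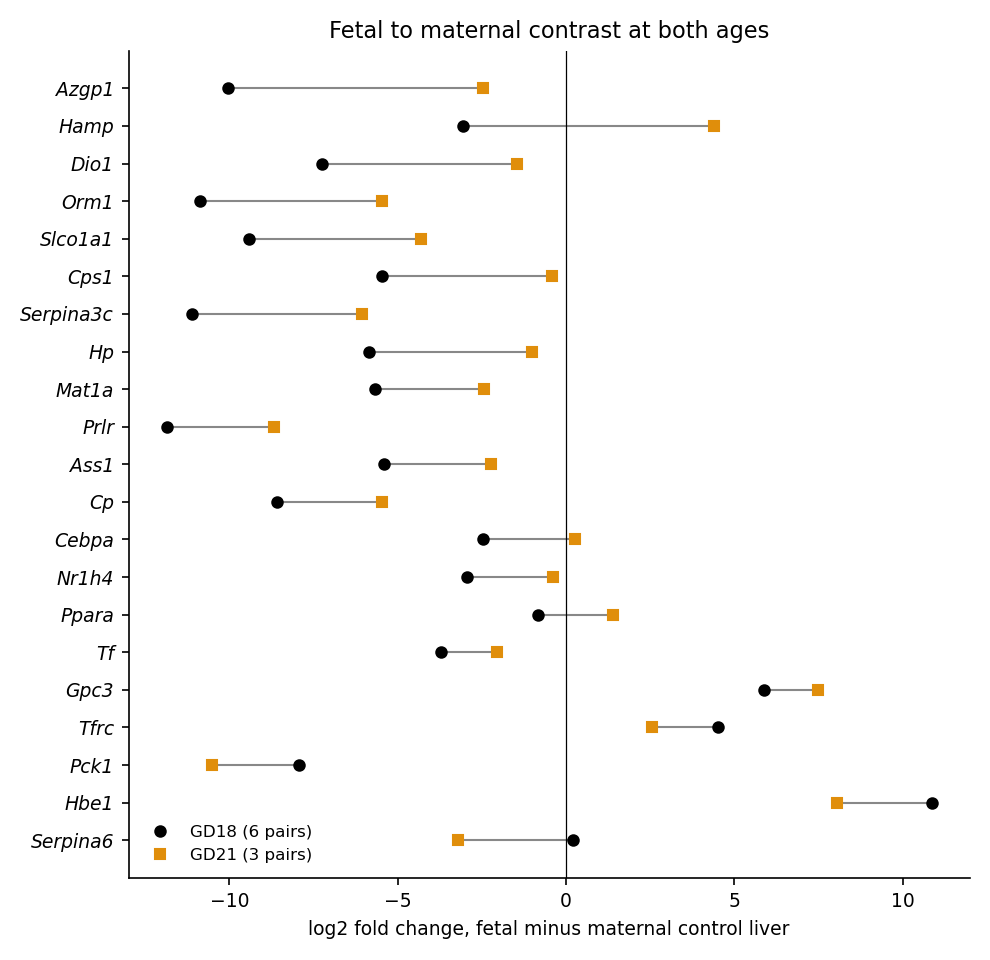
Log2 fold change, fetal minus maternal control liver, of 21 genes at GD18 (black circles, 6 pairs) and GD21 (orange squares, 3 pairs). Lines join the 2 ages: most of the genes that were lower in fetal liver at GD18 lie closer to 0 or beyond it at GD21, while Serpina6 and Pck1 moved to more negative values.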

How the data were processed

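RNA of 12 control livers, 6 fetal and 6 maternal at GD18, was read by TempO-Seq, per the labels' protocols. The authors' deposited file gives estimated counts per gene, with no normalization, and coordinates in rn6, and the submitters' processing notes name STAR 2.7.3a, Partek and rn6. How reads of near-identical genes were assigned is not given in the sources used here. Of the deposited counts 7.61% (in 4145 genes) were not whole and were rounded, where whole counts had been planned for. The second deposited table, the authors' log2 values, was not used.

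Genes passed edgeR's filterByExpr by liver. TMM factors, a quasi-likelihood F test with dam as a replicate block (edgeR 4.0.16, R 4.3.3), Benjamini-Hochberg adjustment and a two-sided threshold of 0.05 gave the calls, and glmTreat those past 2-fold. The SE is the log2 fold change over the square root of F, with a prior count of 0.125. Dam numbers come from titles and pair each fetal library with its dam. Deviations of same-dam libraries correlated across genes at 0.398 to 0.485, and those of other dams of the same block at 0.251 to 0.523, so the check does not tell dam from block. Replicates are separate dams. Chi-square per degree of freedom between libraries of a liver was 6.66 to 76.2, far above counting error, so precision is set by the spread between libraries. Intervals and floors cover counting error only.

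Alternatives were RLE factors, no factors, no filter, DESeq2 1.42.0, no block, each study block alone, haemoglobin genes left out and each dam left out. A receptor covariate, and the lists' counts under alternatives, were added after seeing the data. On simulated counts the test recovered 90% of 2-fold and 100% of larger changes in the main contrast, with 4.88% of its calls false. There 200 of 10151 genes were changed, evenly up and down and none of low count. All genes had the same dispersion, and no block carried background reads. These shares therefore do not carry over to low counts or to data where most genes differ.

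Gene lists (30 of biology and 14 of markers, some genes in several) and members were chosen with earlier results of these data known. List members not tested are those below the filter, and list counts carry no test. Named genes were the 10 of largest fold change in each direction past 2-fold with no overlap and a mean log2 CPM of at least 5, in each list up to 2 per direction past 2-fold and 1 not called, a fixed set, 5 per direction of the age difference, and members of lists given as counts; the genes of largest spread and models without a name are not reported here. Clec4f, Clec4g, Postn, Mcm5, Igf2bp1 and the other list members outside these rules were chosen after their values were seen. Some genes that the rules name are not reported here. Promoters are from RefSeq (GRCr8), which matched 7330 of the 10151 tested genes.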

Additional observations from a re-analysis of the deposited data

Results flagged for a closer look

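In 12 of 200 groups of 6 libraries checked over the genes reported, the highest or lowest library stood apart from the others (its gap to the next, as a share of the whole range, was above Dixon's 95% critical value), and chance alone flags about 1 group in 20. Among these, 5 were in the libraries of dam 2070: Gpc3 had 64.0 CPM in fetal liver (others 117 to 142), Gstp1 67.8 CPM in fetal liver (others 17.9 to 31.8), Sult2a1 20.2 CPM in fetal liver (others 0.198 to 5.98), Ahsp 10.0 CPM in maternal liver (others 4.24 to 5.78) and Thrsp 2459 CPM in maternal liver (others 1805 to 1979). In dam 2071 there were Akr1d1 with 40.9 CPM in fetal liver (others 11.3 to 18.8) and Cpa1 with 33.1 CPM in fetal liver (others 1.63 to 7.47). The others were Cyp1a2 with 2148 CPM in the maternal library of dam 2116 (others 1152 to 1282), G6pc with 56.2 CPM in the maternal library of dam 2116 (others 8.13 to 25.0), Scd2 with 280.5 CPM in the maternal library of dam 2069 (others 26.6 to 105), Slc10a1 with 12.7 CPM in the fetal library of dam 2069 (others 3.37 to 6.74) and Abcg1 with 16.4 CPM in the maternal library of dam 2114 (others 7.95 to 10.1).

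Summed levels of 4 of the 44 lists stood apart in the same way, 1 of them in both livers. Each list was checked in both livers unless its level was too low, and the chance rate given above applies here too. Progenitor, myeloid and megakaryocyte genes summed to 3404 CPM in the fetal library of dam 2071 (others 1778 to 2385) and to 254 CPM in the maternal library of dam 2070 (others 161 to 194). Cell cycle genes summed to 753 CPM in the maternal library of dam 2070 (others 319 to 463), hepatocyte markers to 8966 CPM in the fetal library of dam 2070 (others 6616 to 7304) and lymphocyte markers to 84.0 CPM in the fetal library of dam 2070 (others 15.9 to 35.9). Dam 2070 belongs to block 140, and the part of that block's background reads in these values was not tested.

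The contrast of 54 of 137 reported genes differed between GD21 and GD18 at an adjusted p under 0.05 (edgeR, interaction of liver and age), where age and study block cannot be told apart. All values here are log2 differences of the contrast, GD21 minus GD18. For plasma and iron proteins they were Azgp1 7.59, Hamp 7.46, Orm1 5.41, Serpina3c 5.03, Hp 4.86, Mug1 3.50, Cp 3.12, F9 3.12, Pon1 2.86, Apoc3 2.59, Tf 1.64 and Serpina6 −3.43. For amino acid and urea cycle enzymes they were Cps1 5.04, Mat1a 3.24 and Ass1 3.16. Glucose and glycogen genes gave Ppp1r3c 4.83, Slc2a2 2.05, Pklr 1.34 and Pck1 −2.58. Fat and sterol genes gave Acot12 3.67, Hao1 2.83, Ehhadh 2.19, Fabp1 2.02, Akr1d1 1.89, Insig1 1.83 and Lpl 1.10. For transcription factors and receptors they were Prlr 3.20, Cebpa 2.73, Nr1h4 2.55, Ppara 2.24, Thrb 2.25, Zbtb20 1.64, Onecut1 1.55, Nfia 1.32, Nr1i2 1.19 and Egr1 −2.40. Transporters, hormone and antioxidant enzymes gave Dio1 5.81, Slco1a1 5.10, Slc10a1 2.96, Abcb11 2.86, Mt1 4.03, Mt2A 3.53, Slc38a4 3.19, Nqo1 2.38 and Cat 1.12. Genes of blood, endothelial and dividing cells, fetal genes and a chaperone gave Kif23 6.66, Camp 4.84, Hdc 2.7, Clec4f 2.20, Clec4g 1.82, Gpc3 1.62, Hbe1 −2.82, Tfrc −1.96 and Hsp90aa1 −0.85. Of these 54, 48 moved towards fetal liver and 6, Serpina6, Pck1, Egr1, Hbe1, Tfrc and Hsp90aa1, towards maternal liver. Leaving out dam 2129, 2130 or 2131 ended the call of Hbe1, Pck1, Egr1, Ppara, Gpc3, Tf, Zbtb20, Pklr, Ehhadh, Hao1, Insig1, Lpl, Apoc3, Serpina3c, Mt2A, Clec4g and Hsp90aa1, most of them without dam 2130.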

How the results depend on the processing

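Over 9 alternatives and 6 dams left out in turn, the main counts stayed within 1.5 times: 5696 to 7836 genes called (main 6942, leave-one-out 6338 to 6823) and 2929 to 3876 past 2-fold (main 3565, leave-one-out 3360 to 3576). Without the replicate block, that is without pairing by dam, 7190 genes were called and 3658 past 2-fold. Against the main balance of 3516 genes higher in fetal to 3426 in maternal liver, library totals without factors gave 4170 to 2756. The difference between ages (1196 genes) was 514 to 1337 with 1 dam left out (514 without dam 2130, 794 without dam 2129). The 861 that moved towards fetal liver were 439 to 867 (439 without 2130), and the 335 that moved towards maternal liver were 75 to 470 (75 without 2130, 161 without 2129). That count of 335 was 184 without factors, 183 without the filter and 528 by DESeq2; the cause was not tested. Of 2525 values of 195 single-gene results under the alternatives, 2447 kept direction and side of the threshold, 57 lost the call, 20 gained it and 1 reversed: Hadhb, −0.37 in block 143 alone. Mest gained the call in 7 settings and Pklr in 5. Without factors Ccnd1, Acaca, Serpina6 and Hmox1 gained it too. Ccnd1 also gained it without the filter, without the replicate block and without dam 2069. The age difference of Pck1 lost it without the replicate block (adjusted p = 0.0888) and without factors (0.058). Depth limits genes under a few CPM, and background reads in block 140 reach that level.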

Other observations

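The carboxypeptidase Cpa1 of pancreatic acinar cells measured 264 to 2033 CPM (median 723) in maternal liver and 1.63 to 33.1 CPM (median 4.45) in fetal liver. Its log2 difference was −6.93 ± 0.71, −7.77 in block 143 (adjusted p = 1.06e-05, edgeR). A set of 20 further pancreas genes summed to 3.33 to 44.2 CPM in maternal and 4.70 to 33.8 CPM in fetal libraries. Whether the probe of Cpa1 read other transcripts was not tested.

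Of 15 tested immediate early and heat shock genes 8 were higher in fetal and 4 in maternal liver. Myc, a driver of growth, differed by 2.52 ± 0.25 and the chaperone Hsp90aa1 by 1.62 ± 0.12, both higher in fetal liver, while Egr1 (−1.93 ± 0.32, −1.29 in block 143) was higher in maternal liver.

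Taken over both study blocks together, libraries of the fetal group varied more among themselves. The SD therefore includes any difference between blocks, and the part of that difference in the spread was not tested. Over 3362 well-measured genes (mean log2 CPM 5 or more), the median SD of log2 CPM was 0.288 in fetal and 0.218 in maternal liver, and 2134 genes were more spread in fetal and 1228 in maternal liver. Y-linked transcripts summed to 0.293 to 132.6 CPM in the 6 fetal libraries (median 87.5), 1 of them within the maternal range of 0 to 2.83 CPM, and the part of fetal sex in the spread was not tested.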
